A study of Homo sapiens with 31 samples.

Results

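MCF10A cells held short of DNA replication by palbociclib were compared, by their messenger RNA, with cells held by starvation. MCF10A is a non-transformed human breast epithelial cell line that needs EGF and insulin to divide. In the starved group (0 h), cells had spent 2 to 3 days without serum, EGF and insulin, in medium that still held 0.5 µg/mL hydrocortisone, 100 ng/mL cholera toxin and 0.3% bovine serum albumin. In the palbociclib group (15 h), starved cells had been given full medium with 5% horse serum, 20 ng/mL EGF and 10 µg/mL insulin, besides hydrocortisone and cholera toxin, and 1 µM palbociclib for 15 h. Palbociclib inhibits CDK4 and CDK6, the kinases that cyclin D activates. The members were 3 libraries of each group, 6 of the 31 libraries and 2 of the 11 groups of a time course, chosen by their titles. All differences below are palbociclib minus starved, so a positive value is higher with palbociclib. A further group, full medium with 0.1% DMSO (the vehicle) for 15 h, is given beside them where it helps to read a level, and has 3 libraries. The palbociclib and starved groups differ in medium, in time and in the inhibitor at once, and these cannot be told apart within the comparison.

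In G1, cyclin D with CDK4 or CDK6 and then cyclin E with CDK2 phosphorylate the retinoblastoma protein and its relatives, which releases E2F factors to switch on the genes of DNA replication. In resting cells, E2F4 with p130 (the product of RBL2) and the MuvB proteins forms the DREAM complex, which holds down both the G1/S genes and the later G2/M genes. Without growth factors, PI3K and AKT signalling is low and FoxO factors are active in the nucleus, where they switch on genes such as CDKN1B, PDK4 and TXNIP. Starvation removes growth signals, whereas palbociclib acts on the kinases that relay them to the retinoblastoma protein.

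Reads summed to 11498534 to 18659327 per library over the 6 libraries, and mitochondrial transcripts took 3.18% to 4.24% of them. On the main axis of variation within groups, which held 27.5% of the variance left after groups were fitted, palbociclib replicate 1 had the lowest score of the 31 libraries, -31.6, and palbociclib replicate 3 scored 27.2. With this axis as a covariate 5667 genes were called higher and 6587 lower, close to the counts without it given below. Whether replicates came from separate cultures is not stated, and p-values therefore weigh a spread among libraries that could be purely technical. Levels are read counts scaled to library size with TMM factors (CPM) and are shares of the polyadenylated RNA, so fewer cells of a type and less RNA per cell cannot be told apart. Values after ± are SDs over 3 libraries, and changes are log2 fold changes with the standard error (SE) of the fit. A gene was called at a Benjamini-Hochberg adjusted p below 0.05 in edgeR's quasi-likelihood test.

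The libraries carried the marks of the labelled line. The 7 basal epithelial markers summed to 11639 to 12371 CPM in starved cells and 11683 to 12384 CPM with palbociclib. Within that even sum, KRT14 rose from 40.1 to 470 CPM and LAMB3 from 526 to 3888 CPM, whereas KRT5 fell from 3564 to 2454 CPM and KRT17 from 4501 to 2544 CPM. CDKN2A and CDKN2B, which MCF10A is known to have lost, had 0 counts in all 6 libraries. The luminal markers summed to 940 to 977 CPM in starved cells and 702 to 710 CPM with palbociclib, with ELF5 at 0 counts and KRT19 at 5 and 1 counts per group. Within that sum MUC1 fell from 663 to 178 CPM, while KRT8 rose from 129 to 296 CPM and KRT18, with 16.3% of its exonic bases shared, from 133 to 219 CPM. The mesenchymal markers summed to 499 to 567 CPM and 711 to 788 CPM, nearly all from VIM, with LUM and COL3A1 at 0. The blood and endothelial markers summed to 34.3 to 39.0 CPM and 8.92 to 11.8 CPM, mostly from CD14, while HBB was at 0 and PTPRC had 5 and 0 counts. That sum leaves out the endothelial gene KDR of the broader list, which fell from 89.0 to 0.71 CPM. The squamous markers summed to 140 to 146 CPM and 50.9 to 55.3 CPM, mostly from KRT10, with LOR at 0. Within that sum KRT10 fell from 126 to 36.7 CPM and FLG from 13.7 to 1.19 CPM, while IVL rose from 4.11 to 15.2 CPM. The part of these marker differences in the other results was not tested.

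Most of the measured transcriptome differed between the 2 conditions. Of 15787 genes tested, 5536 (35.1%) were called higher with palbociclib and 6306 (39.9%) lower, and the median log2 change of all genes was -0.09. Changes of at least 2-fold were called for 2268 genes (14.4%) upward and 3359 (21.3%) downward. With palbociclib replicate 1 left out, the counts were 5874 higher and 5849 lower. DMSO at 15 h against the same starved libraries gave 5911 higher (37.4%) and 6203 lower (39.3%). Palbociclib against DMSO at 15 h gave far fewer, with 340 genes higher (2.15%) and 1387 lower (8.79%). These comparisons share libraries with the main one, so their values are set side by side and their likeness is not a result. Read against this background, a single called gene says little, and the account below turns on direction and size within groups of genes.

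**Figure D1:**
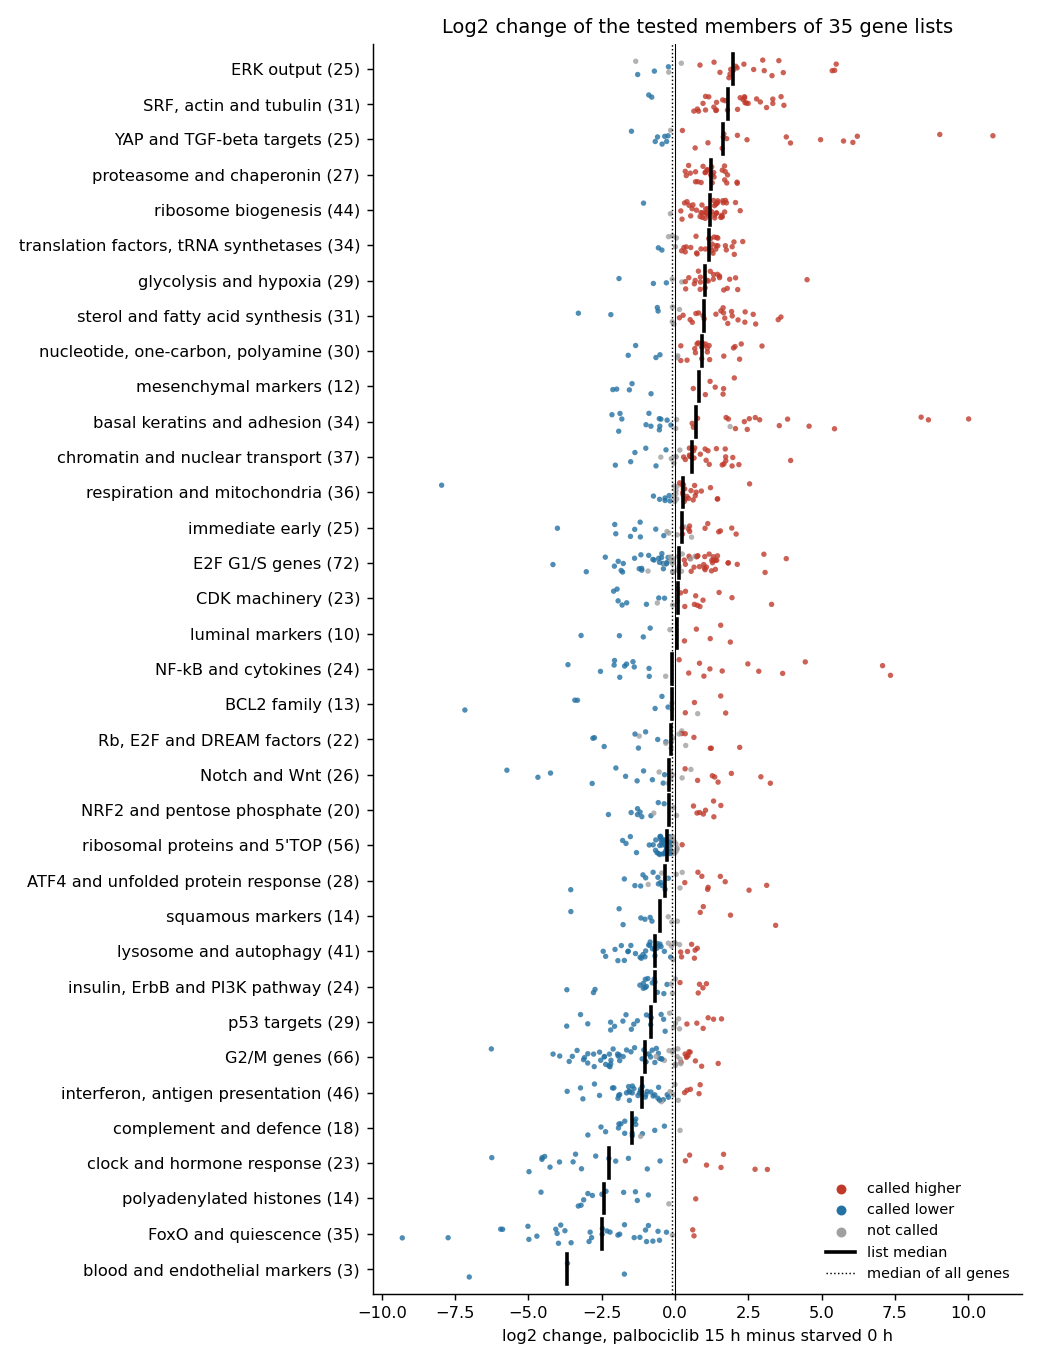
Log2 change (palbociclib at 15 h minus starved cells) of each tested member of 35 gene lists, with the number of tested members in brackets; each point is a gene and the black bars are list medians. ERK output, SRF and actin, and YAP lists lie to the right, FoxO, histone and clock lists to the left, while the E2F G1/S list is spread over both sides of 0 and the G2/M list lies mostly to the left.

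The largest rises among well-measured genes included those of several secreted proteins. KANK4, a cortical actin regulator, had 1 count in the 3 starved libraries and 2382 with palbociclib, a ratio of 2564 (95% counting interval 460 to 101322, counting error only). F3, tissue factor, was at 21.8, 22.5 and 22.6 CPM in starved cells and at 1358, 1591 and 1526 CPM with palbociclib. The 12 largest rises also held CSF3, COL6A3, KIAA1549L, RPSAP52, SERPINE2, ZBED2, SCG5, AMIGO2 and INSC, all with log2 changes between 5.95 and 7.07. The largest falls included several metabolic genes. PDK4, the kinase that shuts pyruvate out of the citric acid cycle, was at 748, 644 and 729 CPM in starved cells and 0.937, 1.20 and 1.13 CPM with palbociclib (log2 change -9.30, SE 0.24, adjusted p = 3e-25). ADH1B, an alcohol dehydrogenase, had 5691 counts against 11, a ratio of 481 (268 to 963), and ACSS1, which activates acetate in mitochondria, had 4747 against 10, a ratio of 441 (240 to 920). The 12 largest falls also held PPARGC1A, FBXO32, BMF, KDR, GREB1, GALNT15, N4BP2L1 (12.0% of exonic bases shared) and MAP7D2. Only genes whose groups did not overlap entered these 2 sets, and the groups did not overlap in 74.5% of all genes tested. Several members were near the floor in 1 group, such as COL6A3 with 17 starved counts and PPARGC1A with 4 palbociclib counts. The sizes and order of such changes rest on those few counts.

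Single genes that drive and brake G1 differed between the 2 states. Of 25 members of the CDK machinery list, 23 were tested: 11 were called higher, 8 lower and 4 not called. The median log2 change was 0.09 (-0.01 when scaled by library totals). With 35.1% higher and 39.9% lower among all genes tested, these counts by themselves do not set the list apart. CCND1, cyclin D1 (chromosome 11, 69641087 to 69654474, plus strand, GRCh38), was at 49.5, 67.8 and 55.9 CPM in starved cells and at 546, 601 and 550 CPM with palbociclib. Every palbociclib library was above every starved library, and the log2 change was 3.29 (SE 0.11, adjusted p = 2e-22). Unstranded counting leaves 10.3% of its exonic bases shared with another annotated gene. CDK6, its partner kinase (chromosome 7, 92604921 to 92836594, minus strand), was at 88.8, 73.5 and 99.8 CPM in starved cells and 348, 350 and 307 CPM with palbociclib (log2 change 1.94, SE 0.10, adjusted p = 6.5e-18). The levels of CCND1 and CDK6 in DMSO at 15 h were 455 ± 13 and 336 ± 32 CPM, so both genes stood far above their starved level in either full-medium group. CDK4 was not called, at 32.4 ± 1.9 and 34.5 ± 2 CPM, and 43.2% of its exonic bases are shared with another gene.

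The inhibitors of cyclin-dependent kinases were lower with palbociclib. CDKN1B, which encodes p27 (chromosome 12, 12715058 to 12722371, plus strand), was at 63.7, 66.3 and 63.4 CPM in starved cells and 19.8, 21.6 and 20.0 CPM with palbociclib (log2 change -1.65, SE 0.09, adjusted p = 1.8e-16). Its level in DMSO was 19.5 ± 2.4 CPM. CDKN1C, p57, fell from 40.9 ± 4.9 to 10.7 ± 1 CPM, CDKN2D, p19, from 4.57 ± 0.83 to 2.28 ± 0.37 CPM, and CDKN1A, p21, from 280 ± 31 to 190 ± 14 CPM. CDKN2C, p18, an inhibitor of CDK4 and CDK6, differed from these in its DMSO level: it was at 6.52 ± 0.36 CPM in starved cells, 1.62 ± 0.41 CPM with palbociclib and 5.81 ± 1.1 CPM with DMSO (palbociclib against DMSO, log2 change -1.83, SE 0.20, adjusted p = 1.5e-08). All 5 tested inhibitor genes were thus lower in cells held by the drug than in cells held by starvation.

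The later cyclins were split. CCNE1, cyclin E1, was at 2.62, 3.63 and 2.33 CPM in starved cells, 4.18, 6.35 and 3.84 CPM with palbociclib and 21.3 ± 1.3 CPM with DMSO. The lowest palbociclib library was just above the highest starved one, and the rise was 0.76 (SE 0.18, adjusted p = 0.00041). CDK2, its kinase, rose from 12.4 ± 1.5 to 22.4 ± 1.2 CPM, and 16.8% of its exonic bases are shared with another gene. CDC25A, the phosphatase that activates CDK2, rose from 3.03 ± 0.82 to 5.89 ± 0.78 CPM against 55.9 CPM with DMSO. CCNA2, cyclin A2, the S-phase and G2 cyclin, went the other way: it was at 7.85, 7.21 and 6.03 CPM in starved cells and 1.53, 1.81 and 1.51 CPM with palbociclib (log2 change -2.10, SE 0.20, adjusted p = 5.6e-11). CCNE2, cyclin E2, was not called, at 0.867 ± 0.18 CPM in starved cells and 0.589 ± 0.23 CPM with palbociclib. Its libraries overlapped, its DMSO level was 20.5 ± 2.3 CPM, and 37.1% of its exonic bases are shared.

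**Figure D2:**
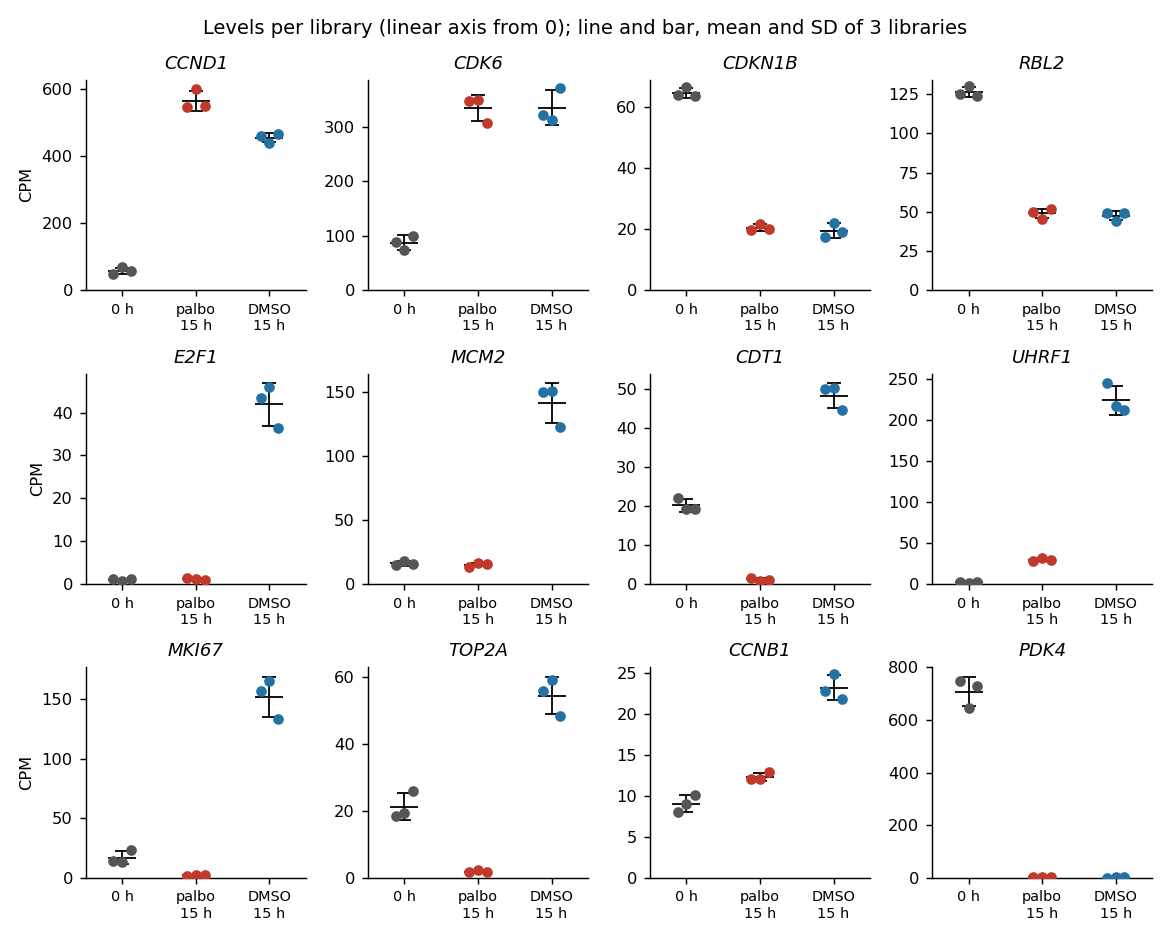
Level of 12 genes in each library (CPM, linear axis from 0) in starved cells (0 h), palbociclib at 15 h and DMSO at 15 h; points are libraries, lines and bars the mean and SD of 3. CCND1 and CDK6 are high in both full-medium groups and CDKN1B, RBL2 and PDK4 low in both, E2F1 and MCM2 overlap between starved and palbociclib cells, and CDT1, MKI67 and TOP2A are lowest with palbociclib.

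Among the 22 retinoblastoma, E2F and DREAM factors, 6 were called higher, 8 lower and 8 not called. Their median was -0.13 (0.01 without palbociclib replicate 1). Beside 35.1% higher and 39.9% lower among all genes tested, these counts alone do not set the factors apart. RBL2, which encodes p130 (chromosome 16, 53433977 to 53491649, plus strand), was at 125, 130 and 124 CPM in starved cells and 49.9, 45.7 and 51.5 CPM with palbociclib, with 47.5 ± 3 CPM in DMSO. It fell by 1.37 (SE 0.06, adjusted p = 3.9e-19), and 18.2% of its exonic bases are shared with another gene. Its partner E2F4, the usual E2F of DREAM, rose from 34.5 ± 2.1 to 79.4 ± 2.5 CPM. The activator E2F1 (chromosome 20, 33675683 to 33686404, minus strand) was at 1.11, 0.750 and 1.13 CPM in starved cells and 1.36, 1.15 and 0.819 CPM with palbociclib. These libraries overlapped, the difference was not called (log2 change 0.14, 95% interval -0.44 to 0.71), and the DMSO level was 41.9 ± 4.9 CPM. E2F3, another activator, rose from 19.4 ± 2.1 to 45.7 ± 2.7 CPM. E2F7, an atypical E2F that represses other E2F targets, was at 3.08, 4.27 and 3.34 CPM in starved cells and 16.4, 16.9 and 16.1 CPM with palbociclib (log2 change 2.2, SE 0.13, adjusted p = 2.7e-16). E2F2 fell, with 104 counts in starved cells and 14 with palbociclib, a ratio of 6.90 (3.93 to 13.1).

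FOXM1 and MYBL2, which act late in the cycle, were lower. The MuvB and retinoblastoma family genes given after them were lower, higher or not called. FOXM1, a driver of G2/M genes, was at 5.17, 4.56 and 5.07 CPM in starved cells and 0.852, 0.711 and 0.567 CPM with palbociclib (log2 change -2.80, SE 0.22, adjusted p = 5.4e-13), against 24.6 ± 4.1 CPM with DMSO. For FOXM1, 15.9% of exonic bases are shared with another gene. MYBL2, the B-Myb that joins MuvB in S phase, had 42 counts in starved cells and 7 with palbociclib, a ratio of 5.57 (2.48 to 14.7), and reached 93.8 ± 14 CPM with DMSO. Its relative MYBL1 was not called, at 1.09 ± 0.23 and 0.973 ± 0.26 CPM, nor were the MuvB members LIN37 (54.0% of exonic bases shared), LIN52 and RBBP4 (18% shared), although LIN52 was called lower, at -0.41, under library totals and without starved replicate 3 and RBBP4, at -0.16, under library totals. The MuvB subunit LIN9 fell from 20.1 ± 0.87 to 10.1 ± 1 CPM, whereas the p107 gene RBL1 was not called, at 11.8 ± 1.4 and 10.8 ± 0.26 CPM (it passed the test, at -0.23, under library totals and, at -0.22, without starved replicate 2). RB1 itself rose slightly, from 103 ± 1.2 to 120 ± 14 CPM (log2 change 0.23), a call that was lost under scaling by library totals (0.13).

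**Figure D3:**
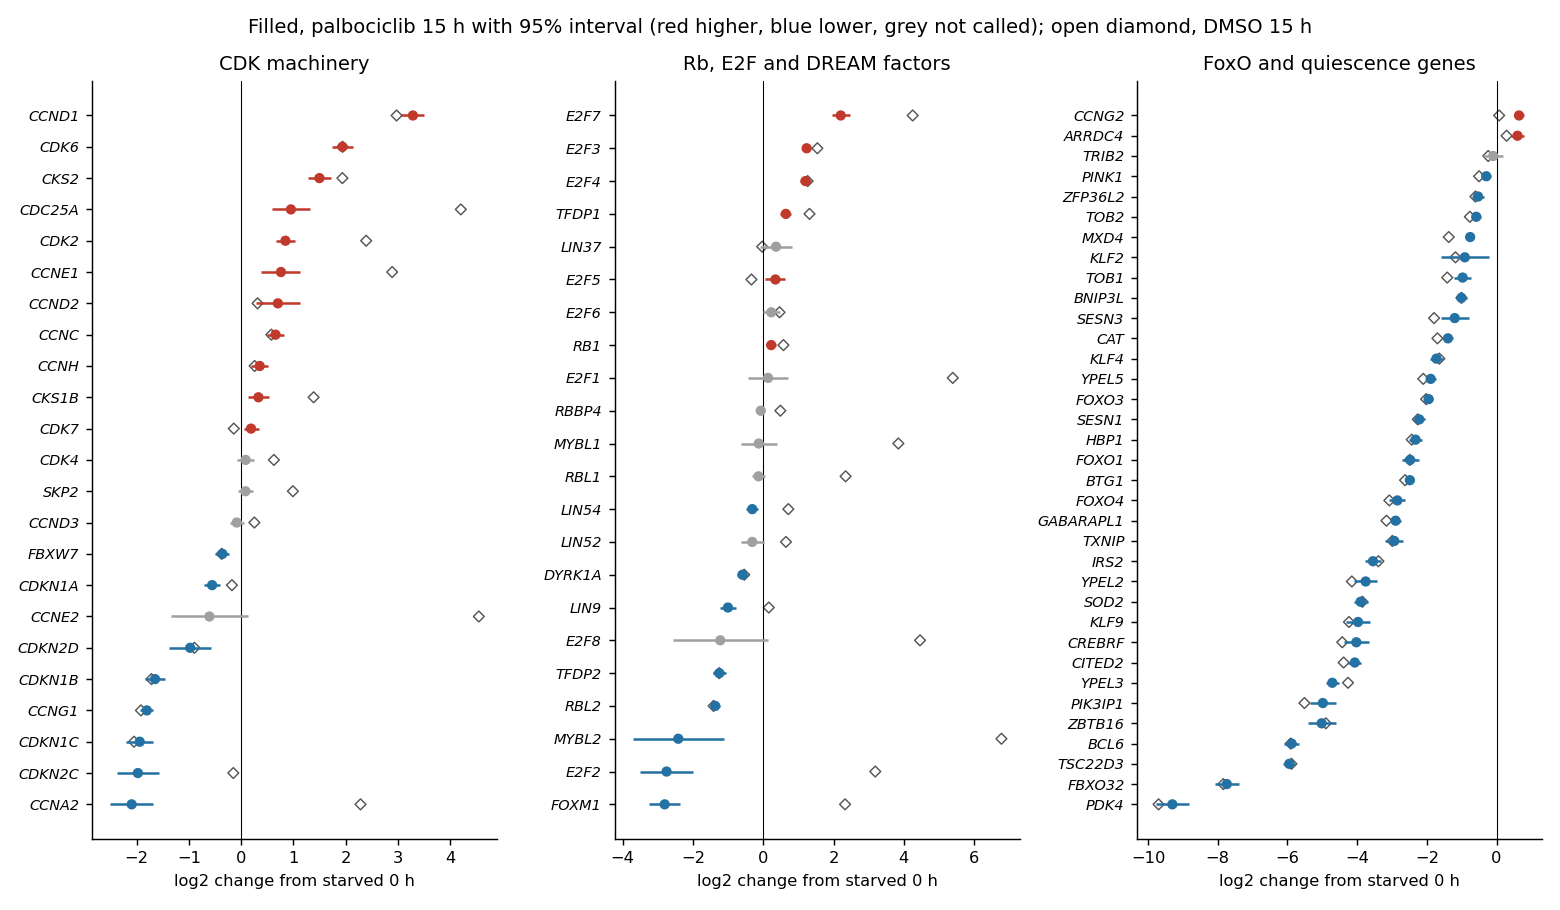
Log2 change from starved cells of the tested members of 3 lists: filled points, palbociclib at 15 h with 95% interval; open diamonds, DMSO at 15 h. Both released groups share the starved libraries as their base. In the FoxO panel diamonds and points lie close together, whereas in the CDK and Rb/E2F panels the diamonds of E2F1, MYBL2, FOXM1 and CCNA2 lie to the right of the points.

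The E2F-regulated genes of G1/S were found on both sides of their starved level. All 72 members of this list were tested: 31 were called higher, 25 lower and 16 not called, with a median of 0.13 and a range of -4.16 to 3.79. All genes tested gave 35.1% higher and 39.9% lower, so these counts by themselves do not set the list apart. At least 2-fold changes were called upward for 20 and downward for 13. For 17 of the 72 genes, the 95% interval lay within 1.5-fold of no change, against 23.9% of all genes tested. In DMSO at 15 h all 72 were higher than in starved cells, with a median of 2.88, and all 72 were lower with palbociclib than with DMSO. Against the starved level the members took very different positions, which are given by role.

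Origin licensing is the loading of the MCM helicase by ORC, CDC6 and CDT1. Its 11 genes had the widest range of changes among the roles of this list, -4.16 to 1.42. Of these, 5 were higher, 4 lower and 2 not called, near the 35.1% and 39.9% of all genes tested. CDT1, the loading factor (chromosome 16, 88803213 to 88809258, plus strand), was at 22.1, 19.1 and 19.3 CPM in starved cells, at 1.62, 0.821 and 1.07 CPM with palbociclib and at 48.3 ± 3.1 CPM with DMSO. It fell by 4.16 (SE 0.16, adjusted p = 8.6e-21). ORC1, the cell cycle-regulated origin subunit (chromosome 1, 52372829 to 52404459, minus strand), was at 8.24, 8.71 and 8.24 CPM in starved cells and 0.767, 1.09 and 1.13 CPM with palbociclib (log2 change -3.03, SE 0.19, adjusted p = 1.5e-15). For both genes every palbociclib library was far below every starved library. The 6 subunits of the MCM helicase, which act together as a ring, moved apart. MCM7 fell from 60.6, 71.8 and 59.0 CPM to 17.9, 16.1 and 16.1 CPM (log2 change -1.94, SE 0.09). MCM3 rose from 22.5 ± 2.5 to 58.6 ± 3.6 CPM (log2 change 1.38, SE 0.08) and MCM6 from 17.0 ± 2.2 to 45.7 ± 0.77 CPM (1.42, SE 0.09), and MCM4 rose less, by 0.35. MCM2 was not called and its libraries overlapped, at 14.5, 17.9 and 15.5 CPM in starved cells and 13.5, 16.1 and 15.7 CPM with palbociclib (95% interval -0.29 to 0.14), and MCM5 was not called at 11.7 ± 0.38 and 10.6 ± 1.7 CPM, although library totals gave a call at -0.26. With DMSO all 6 subunits were higher than in starved cells, between 141 and 326 CPM.

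Origin firing genes were mostly higher, with 7 of 9 called higher, 0 lower and a median of 1.16. These included the 4 GINS subunits of the replicative helicase, of which GINS1 rose from 1.98 ± 0.19 to 4.89 ± 0.56 CPM and GINS2 from 0.833 ± 0.074 to 2.21 ± 0.35 CPM. CDC7, the kinase that fires origins, rose from 3.29 ± 0.52 to 7.36 ± 0.43 CPM and its activator DBF4 from 9.05 ± 1 to 14.8 ± 2.8 CPM. TICRR, which links CDK activity to firing, rose from 1.76 ± 0.17 to 6.26 ± 1.1 CPM. The genes of the replication fork gave 12 higher, 4 lower and 5 not called of 21. CLSPN, the fork checkpoint mediator, had 9 counts in starved cells and 73 with palbociclib, a ratio of 8.73 (4.36 to 19.9), but 81.0 ± 3.1 CPM with DMSO against 1.58 ± 0.1 with palbociclib. POLE2, a subunit of DNA polymerase epsilon, had 13 and 100 counts, a ratio of 8.28 (4.63 to 16.1), while the catalytic subunit POLE fell from 53.6 ± 1.5 to 36.5 ± 2.6 CPM. FEN1, the flap nuclease, rose from 5.95 ± 0.69 to 16.3 ± 1.1 CPM, and the ligase LIG1, which acts after it on the lagging strand, fell from 17.1 ± 0.75 to 7.79 ± 0.14 CPM. The primase subunit PRIM1 fell from 6.56 ± 0.23 to 1.95 ± 0.24 CPM, and the sliding clamp PCNA rose a little, from 32.0 ± 2.7 to 39.7 ± 2.4 CPM (log2 change 0.32, SE 0.08, adjusted p = 0.00068).

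The enzymes of deoxynucleotide supply leaned the other way, with 7 of 8 lower, 1 higher and a median of -0.83. RRM1, the large subunit of ribonucleotide reductase (chromosome 11, 4094707 to 4138876, plus strand), was at 96.8, 102 and 94.3 CPM in starved cells and 41.8, 47.1 and 44.2 CPM with palbociclib (log2 change -1.14, SE 0.06, adjusted p = 2e-16). Its regulated partner RRM2 went from 5.25 ± 1.1 to 2.76 ± 0.74 CPM, against 263 CPM with DMSO. Thymidylate synthase, TYMS, fell by 2.07 (SE 0.17), from 8.60 ± 1.8 to 2.05 ± 0.091 CPM, with 26.2% of its exonic bases shared, and thymidine kinase, TK1, had 68 counts and then 18, a ratio of 3.51 (2.06 to 6.27). The 1 member called higher was DCTPP1, a dCTP-cleaving enzyme, which rose from 17.0 ± 2.2 to 40.3 ± 0.35 CPM, with 42.1% of its exonic bases shared.

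Genes of chromatin replication held the largest rise of the list. UHRF1, which reads newly replicated methylated DNA (chromosome 19, 4903080 to 4962154, plus strand), was at 2.09, 1.67 and 2.69 CPM in starved cells, 28.0, 31.5 and 29.6 CPM with palbociclib and 224 ± 18 CPM with DMSO. It rose by 3.79 (SE 0.13, adjusted p = 1e-21). DNMT1, the maintenance DNA methyltransferase that UHRF1 recruits, rose from 23.1, 20.0 and 20.6 CPM to 96.0, 91.5 and 89.4 CPM (log2 change 2.12, SE 0.06, adjusted p = 2.6e-23). In both genes the groups were widely separated, and palbociclib cells lay between the starved and the DMSO level. The subunit CHAF1A of the histone chaperone CAF-1 fell from 10.8 ± 0.73 to 7.96 ± 0.54 CPM, and the chromatin ATPase ATAD2 fell from 27.3 ± 0.96 to 20.6 ± 1.5 CPM. Of 12 repair and checkpoint genes, 2 were higher, 4 lower and 6 not called. FAM111A, a protease that acts at replication forks (chromosome 11, 59142748 to 59155039, plus strand), was at 45.9, 45.7 and 48.8 CPM in starved cells and 9.12, 8.98 and 8.89 CPM with palbociclib. It fell by 2.38 (SE 0.09, adjusted p = 3.3e-21), and its DMSO level, 59.4 ± 3.1 CPM, was the closest to the starved level of the 72 genes (log2 change 0.34). DTL, which targets CDT1 for destruction, rose from 1.60 ± 0.46 to 3.95 ± 0.2 CPM. CHEK1, the replication checkpoint kinase, was not called at 26.5 ± 3.1 and 24.0 ± 2 CPM, though it was called lower under library totals (-0.23) and without starved replicate 2 (-0.19).

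**Figure D4:**
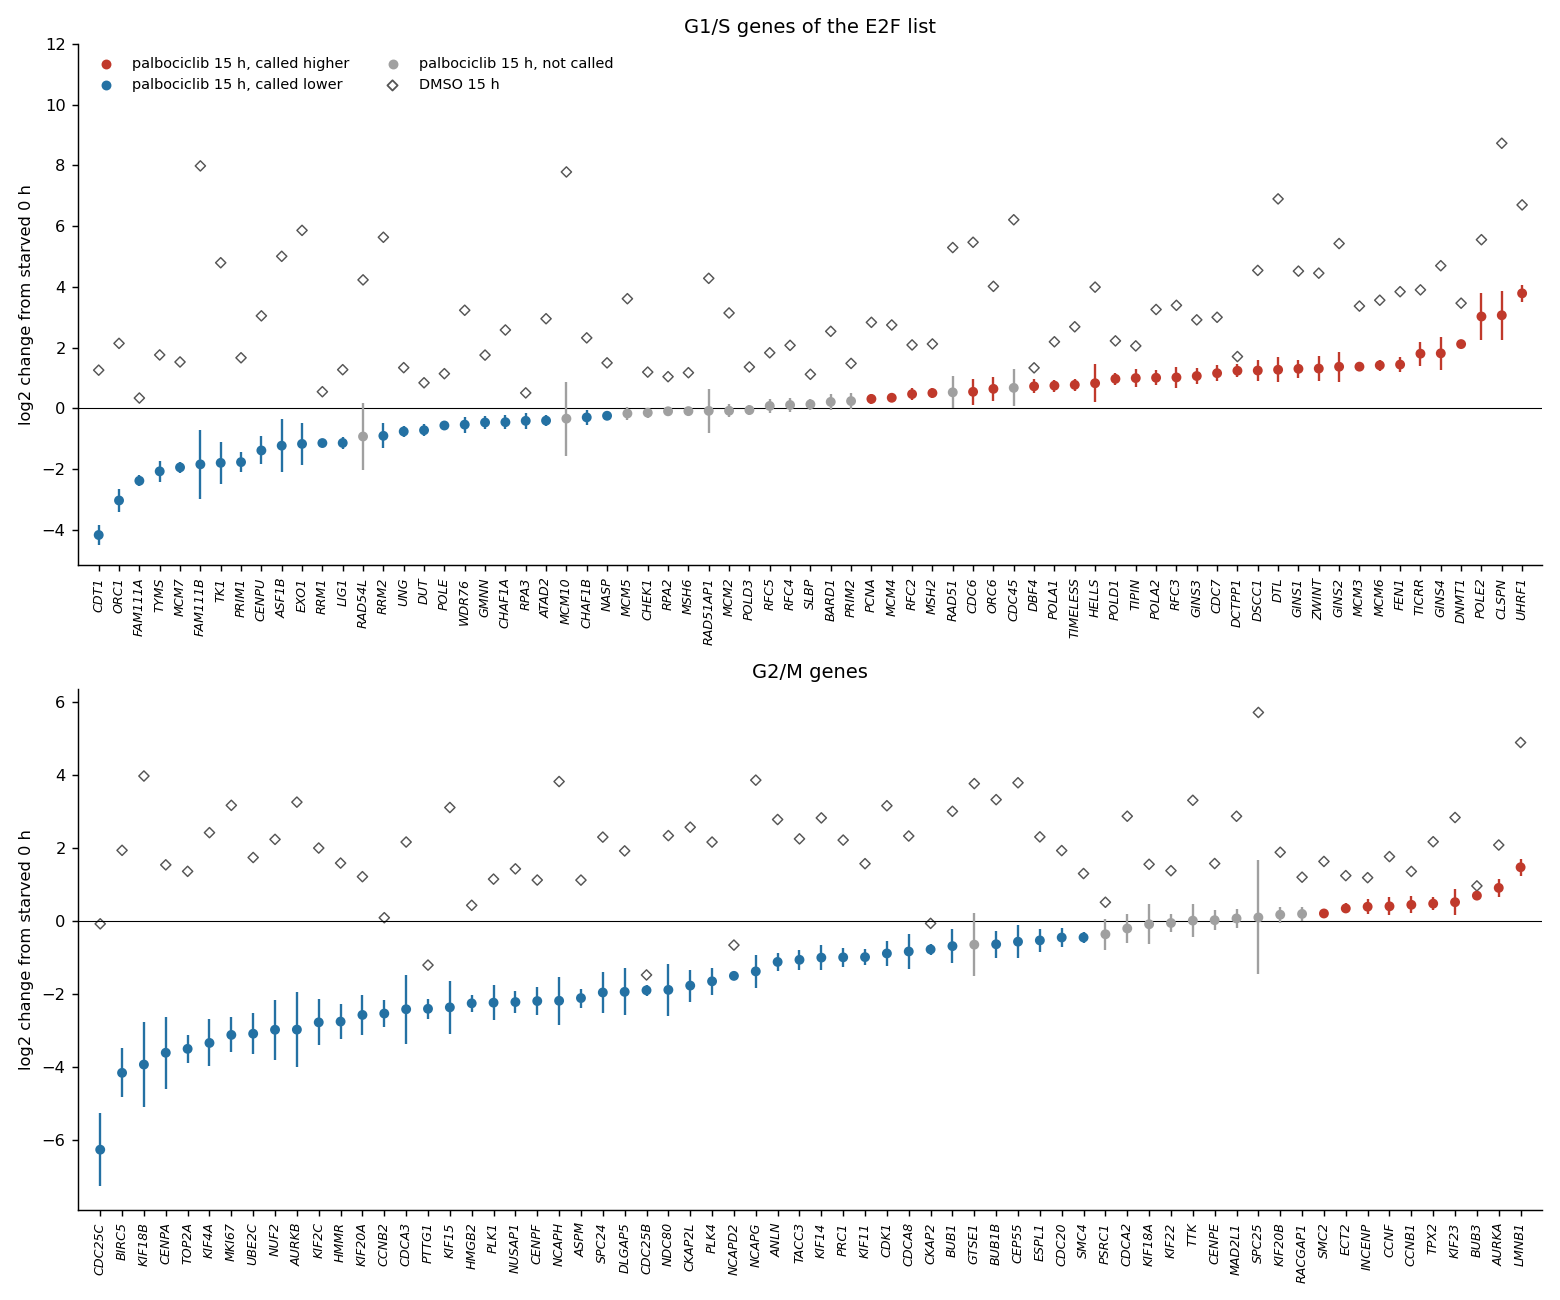
Log2 change from starved cells for 71 of the 72 E2F G1/S genes (top) and 66 G2/M genes (bottom), ordered by their change with palbociclib at 15 h (filled, 95% interval); open diamonds are DMSO at 15 h, which shares the starved libraries. In both panels the diamonds lie above the points; in the upper panel points run from -4.16 for CDT1 to 3.79 for UHRF1, and in the lower panel most points lie below 0.

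The G2/M genes were mostly lower with palbociclib than after starvation. All 66 members were tested: 45 were called lower, 10 higher and 11 not called, with a median of -1.03 against -0.09 for all genes, and 34 fell at least 2-fold while 1 rose as much. The markers of proliferation were among the clearest. MKI67, which encodes Ki-67 (chromosome 10, 128096659 to 128126385, minus strand), was at 14.2, 13.1 and 23.4 CPM in starved cells, 1.62, 2.08 and 2.02 CPM with palbociclib and 152 ± 17 CPM with DMSO. TOP2A, the mitotic topoisomerase (chromosome 17, 40388516 to 40417950, minus strand), was at 18.6, 19.3 and 26.0 CPM in starved cells and 1.62, 2.19 and 1.70 CPM with palbociclib. MKI67 fell by 3.12 (SE 0.24, adjusted p = 2.5e-13) and TOP2A by 3.50 (SE 0.19, adjusted p = 4.9e-17). In each gene the starved libraries were all above the palbociclib libraries, and starved replicate 3 was the highest.

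By role, cyclin B, CDK1 and the CDC25 phosphatases gave 4 lower and 2 higher of 6. CDC25C, which activates CDK1, had 113 counts in starved cells and 1 with palbociclib, a ratio of 105 (18.5 to 4182). CDC25B, the phosphatase that starts this activation, was at 183, 179 and 167 CPM in starved cells and 48.8, 47.2 and 45.9 CPM with palbociclib, and its DMSO level, 63.4 ± 2.3 CPM, was also below the starved level (log2 change -1.48). CCNB2 fell from 9.76 ± 0.95 to 1.68 ± 0.26 CPM and CDK1 from 5.09 ± 0.14 to 2.68 ± 0.49 CPM. CCNB1, the main mitotic cyclin, was called higher: it was at 7.98, 9.00 and 10.1 CPM in starved cells and 12.0, 12.0 and 12.9 CPM with palbociclib (log2 change 0.44, SE 0.12, adjusted p = 0.00096). Of 10 mitotic kinases and passenger complex genes, 7 were lower and 2 higher. BIRC5, survivin, was the largest fall among them at -4.16, with 258 and 13 counts, a ratio of 18.4 (10.6 to 35.1). AURKB had 62 and 7 counts, a ratio of 8.23 (3.76 to 21.3), whereas AURKA, the centrosomal Aurora kinase, rose from 5.30, 4.09 and 4.42 CPM to 9.88, 8.37 and 7.75 CPM (log2 change 0.90, SE 0.12, adjusted p = 3e-08). TTK was not called, at 2.18 ± 0.3 and 2.18 ± 0.19 CPM (95% interval -0.44 to 0.46).

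The remaining mitotic roles held few exceptions. Kinetochore genes gave 5 lower and 0 higher of 7, with CENPF falling from 25.4 ± 6.4 to 5.57 ± 1.3 CPM and CENPE not called at 9.99 ± 0.67 and 10.2 ± 1.4 CPM. Kinesins gave 7 lower and 1 higher of 11, with KIF20A falling from 4.06 ± 0.57 to 0.682 ± 0.1 CPM and KIF23 rising from 5.51 ± 0.46 to 7.80 ± 0.82 CPM. Spindle and cytokinesis genes gave 10 lower and 2 higher of 15, with ASPM falling from 27.5 ± 4.2 to 6.40 ± 1.2 CPM and TPX2, the activator of AURKA, rising from 14.7 ± 1.9 to 20.5 ± 1.4 CPM. In the anaphase group PTTG1, securin, fell from 29.4 ± 1.5 to 5.37 ± 1.7 CPM, and it was also low with DMSO, at 12.7 ± 0.99 CPM. BUB3 rose from 102 ± 3.9 to 165 ± 12 CPM. Chromosome structure genes gave 7 lower and 2 higher of 9: HMGB2 fell from 32.6 ± 1.3 to 6.81 ± 0.07 CPM and the condensin subunit NCAPD2 from 85.0 ± 1.7 to 30.0 ± 1.2 CPM. LMNB1, lamin B1 (chromosome 5, 126776623 to 126837020, plus strand), was the largest rise of the 66, from 3.93, 4.61 and 3.94 CPM to 11.1, 12.3 and 11.2 CPM (log2 change 1.47, SE 0.11, adjusted p = 3e-13), against 124 ± 5.7 CPM with DMSO.

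Promoters were searched for 6 motifs because members of one list moved in opposite directions. RefSeq promoter windows (250 bases before to 50 after the start, GRCh38.p14) were found for 59 of the 72 G1/S genes, 57 of the 66 G2/M genes and 30 of the 35 tested FoxO and quiescence genes. An E2F word (TTTCCCGC, TTCCCGCC or TTTGGCGC, either strand; the first 2 can overlap each other) was in 28 of 59 G1/S windows (47.5%) and in 4.59% of 35116 windows in the table. It was in 16 of 27 windows of genes called higher, in 8 of 20 of genes called lower and in 4 of 12 of genes not called. The CHR word TTTGAA, where MuvB complexes bind, was in 41 of 57 G2/M windows (71.9%) against 15.2% of all windows, and in 5 of 7 of the genes called higher and 31 of 42 of those called lower. The FoxO word GTAAACA was in 6 of 30 windows of the FoxO and quiescence list (20%) against 3.42% of all windows, and the E-box CACGTG was in 6 of the 30 as well, against 7.26%. The E-box was in 7 of 59 G1/S and 5 of 57 G2/M windows. The AP-1 word TGACTCA was in 0, 0 and 1 windows of the G1/S, G2/M and FoxO lists (4.95% of all windows) and the CRE word TGACGTCA in 4, 4 and 1 (1.85%). The windows shown belong to 4 genes of these lists with large called changes whose window holds the word of its list, and matches are in capitals. Not every gene of the lists was open to this choice, so these 4 need not have the largest changes. CDT1 (chr16:88803539-88803838, plus strand) and UHRF1 (chr19:4909251-4909550, plus strand) stand at the opposite ends of the G1/S list and each holds 2 E2F words, KIF18B (chr17:44947724-44948023, minus strand) a CHR word, and YPEL3 (chr16:30096164-30096463, minus strand) a FoxO word.
CDT1: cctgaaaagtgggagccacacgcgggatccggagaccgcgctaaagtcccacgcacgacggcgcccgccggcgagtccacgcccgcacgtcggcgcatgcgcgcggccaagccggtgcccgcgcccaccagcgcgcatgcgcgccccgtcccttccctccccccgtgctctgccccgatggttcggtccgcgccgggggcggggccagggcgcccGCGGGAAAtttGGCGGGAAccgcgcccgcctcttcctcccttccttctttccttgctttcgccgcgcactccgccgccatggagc
UHRF1: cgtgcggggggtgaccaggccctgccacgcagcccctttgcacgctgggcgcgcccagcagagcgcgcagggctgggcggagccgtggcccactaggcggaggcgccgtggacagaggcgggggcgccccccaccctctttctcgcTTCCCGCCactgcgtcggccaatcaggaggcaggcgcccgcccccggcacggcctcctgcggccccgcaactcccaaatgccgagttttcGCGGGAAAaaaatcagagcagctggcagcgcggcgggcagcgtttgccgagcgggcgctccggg
KIF18B: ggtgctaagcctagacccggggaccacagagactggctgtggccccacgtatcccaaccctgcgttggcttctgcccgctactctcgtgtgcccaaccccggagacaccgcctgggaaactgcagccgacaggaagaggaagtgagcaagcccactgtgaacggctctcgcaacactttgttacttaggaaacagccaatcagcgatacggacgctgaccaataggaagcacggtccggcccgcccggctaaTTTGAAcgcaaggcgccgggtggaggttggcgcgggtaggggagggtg
YPEL3: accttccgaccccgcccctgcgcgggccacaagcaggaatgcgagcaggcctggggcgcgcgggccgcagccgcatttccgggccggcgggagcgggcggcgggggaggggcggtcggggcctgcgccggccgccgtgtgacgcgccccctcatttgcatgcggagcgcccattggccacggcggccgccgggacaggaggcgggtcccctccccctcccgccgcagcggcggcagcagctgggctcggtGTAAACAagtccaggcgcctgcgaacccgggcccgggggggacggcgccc

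In the CDT1 window the words begin 35 and 24 bases before the start, and in the UHRF1 window 104 and 14 bases before it. In KIF18B and YPEL3 the word begins at the 3rd and the 1st transcribed base of the RefSeq model. A match is a description of letters and says nothing about which factor was bound in these cells. The lists were made of genes already known for these programmes, so a high share of their words can follow from that choice. The comparison was with all windows, not only those of the genes tested.

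The genes that FoxO factors and quiescence are known for were nearly all lower with palbociclib. Of 35 tested members, 32 were called lower, 2 higher and 1 not called, with a median of -2.48, and 26 fell at least 2-fold. FBXO32, an atrophy-linked ubiquitin ligase subunit, was at 479, 401 and 471 CPM in starved cells and 2.56, 1.86 and 2.02 CPM with palbociclib (log2 change -7.74, SE 0.17, adjusted p = 7.1e-27). TXNIP, which restrains glucose uptake (chromosome 1, 145992435 to 145996600, minus strand), was at 2733, 2233 and 2906 CPM and then 318, 353 and 359 CPM. The FoxO genes themselves were lower: FOXO1 fell from 320 ± 20 to 57.4 ± 3.6 CPM, FOXO3 from 334 ± 28 to 86.4 ± 2 CPM and FOXO4 from 35.1 ± 0.86 to 4.91 ± 0.4 CPM. TSC22D3, a FoxO and glucocorticoid target, fell from 916 ± 24 to 14.7 ± 1.3 CPM. Hydrocortisone was in both media, and the cause of this fall was not tested. The repressor BCL6 fell from 278 ± 22 to 4.73 ± 0.17 CPM, and the mitochondrial superoxide dismutase SOD2 from 2930 ± 235 to 196 ± 13 CPM, with 12.0% of its exonic bases shared. YPEL3, a gene tied to growth arrest whose promoter is printed above, fell from 101 ± 5.2 to 3.87 ± 0.44 CPM. With DMSO the same list gave 32 lower and 1 higher with a median of -2.49, and palbociclib against DMSO gave 5 higher and 1 lower of 35.

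The 2 exceptions rose under palbociclib. CCNG2, an atypical cyclin that FoxO factors induce and that accompanies cell cycle arrest (chromosome 4, 77157151 to 77433388, plus strand), was at 84.3, 87.9 and 83.1 CPM in starved cells and 120, 145 and 133 CPM with palbociclib (log2 change 0.64, SE 0.07, adjusted p = 1.3e-09). Its DMSO level was 89.7 ± 5.8 CPM, so the palbociclib libraries were above both other groups (palbociclib against DMSO, log2 change 0.57, SE 0.07, adjusted p = 2.2e-07). ARRDC4, a TXNIP relative, rose from 19.9 ± 1.1 to 30.2 ± 0.42 CPM against 24.3 CPM with DMSO. MXD4, a MAX partner that opposes MYC, was lower than in starved cells but took a middle place, at 144 ± 1.9 CPM in starved cells, 85.2 ± 2.3 CPM with palbociclib and 55.6 CPM with DMSO (palbociclib against DMSO, adjusted p = 4.2e-10).

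Of 24 genes of insulin and ErbB signalling, 16 were lower, 5 higher and 3 not called. INSR, the insulin receptor, fell from 131 ± 12 to 19.1 ± 1.3 CPM, ERBB3 from 55.0 ± 4.8 to 8.38 ± 1.2 CPM, ERBB2 from 153 ± 5.9 to 77.6 ± 3.7 CPM and the adaptor GRB7 from 47.2 ± 2.1 to 3.62 ± 0.33 CPM. AKT1 rose from 77.8 ± 6.3 to 163 ± 5.4 CPM, MTOR from 97.2 ± 6.3 to 168 ± 3.4 CPM and RPTOR from 39.9 ± 1.8 to 77.1 ± 2 CPM. Lysosome and autophagy genes gave 28 lower, 7 higher and 6 not called of 41, with a median of -0.69. ULK1, the kinase that starts autophagy, fell from 138 ± 9.9 to 25.4 ± 2.6 CPM and MITF, a transcription factor of the TFEB family, from 35.8 ± 3.4 to 6.87 ± 0.61 CPM, while ATP6V0D1, a proton pump subunit, rose from 46.0 ± 3.3 to 72.6 ± 3.4 CPM. Of 29 p53 target genes other than CDKN1A, 18 were lower, 6 higher and 5 not called, with a median of -0.82. GDF15 fell from 32.6 ± 2 to 2.50 ± 0.37 CPM and BBC3, which encodes PUMA, from 20.5 ± 3.4 to 2.2 ± 0.18 CPM, whereas TIGAR rose from 15.3 ± 2.4 to 46.1 ± 2.6 CPM.

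Targets of ERK, the kinase that EGF activates, were high with palbociclib. Of 25 members, 19 were higher, 3 lower and 3 not called, with a median of 1.98, the highest of the 35 lists. SPRY4, a feedback inhibitor of the pathway (chromosome 5, 142310427 to 142326455, minus strand), was at 4.38, 2.42 and 2.51 CPM in starved cells and 134, 121 and 123 CPM with palbociclib (log2 change 5.36, SE 0.12, adjusted p = 3.1e-26). ETV4, an ERK-induced transcription factor, had 13 and 537 counts, a ratio of 44.5 (25.8 to 84.1), and FOSL1, an AP-1 subunit, rose from 10.6 ± 1.6 to 105 ± 3.8 CPM. DMSO levels were close, at 123 ± 2.8 CPM for SPRY4 and 116 CPM for FOSL1, and neither differed from palbociclib by the test. SPRY1 was the other way round, falling from 5.53 ± 0.97 to 2.28 ± 0.19 CPM. The immediate early list, genes that serum switches on within minutes to hours, gave 11 higher, 9 lower and 5 not called of 25. With 35.1% higher and 39.9% lower among all genes tested, these counts by themselves do not set the list apart. FOS was at 157, 75.9 and 164 CPM in starved cells and 31.5, 32.1 and 31.6 CPM with palbociclib (log2 change -2.06, SE 0.15), so starved cells held more FOS and starved replicate 2 stood apart from the other two. ATF3 fell from 14.9 ± 4.5 to 0.886 ± 0.21 CPM, and ID1, an inhibitor of differentiation factors, rose from 79.6 ± 28 to 223 ± 4.7 CPM. EGR1 varied widely in starved cells, at 94.0 ± 75 CPM against 138 ± 7.1 CPM, and was not called, though it was called at 1.01 without starved replicate 1 and at 0.56 when no filter on low counts was used.

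Lists of the growth machinery were mostly higher than in starved cells in both full-medium groups. With DMSO, ribosome biogenesis gave 41 of 44 higher (median 1.25), translation 26 of 34 and the proteasome list 27 of 27, and between palbociclib and DMSO 42, 32 and 27 of these genes were not called. With palbociclib, ribosome biogenesis factors gave 42 higher, 1 lower and 1 not called of 44, with a median of 1.19 (1 or 2 lower with single libraries left out). UTP20, a processing factor of the small subunit, rose from 55.4 ± 3.5 to 167 ± 7.9 CPM and BYSL from 11.6 ± 1.4 to 48.6 ± 4.2 CPM. NPM1, nucleophosmin, was the 1 not called, at 1807 ± 156 and 1615 ± 147 CPM (it was called lower under 5 of the 15 alternatives, between -0.25 and -0.16), and NOB1 fell from 98.8 ± 11 to 46.6 ± 5.6 CPM with 20.2% of its exonic bases shared. The messengers of ribosomal proteins and other transcripts with a 5' terminal oligopyrimidine tract did the opposite: 43 of 56 were lower, 1 higher (0 to 3 with single libraries left out) and 12 not called, but the median was only -0.29 and 38 of the 56 had intervals within 1.5-fold. The larger falls in that list were in small nucleolar RNA hosts, with GAS5 falling from 468 ± 56 to 146 ± 4.4 CPM and SNHG5 from 198 ± 22 to 68.5 ± 3.4 CPM, while RPL8 was not called at 1374 ± 75 and 1401 ± 63 CPM. Translation factors and tRNA synthetases gave 28 higher and 2 lower of 34, with EIF4G1 rising from 523 ± 7.3 to 1368 ± 26 CPM and the valine enzyme VARS from 102 ± 5.8 to 279 ± 20 CPM. All 27 proteasome and chaperonin genes were higher, by a median of 1.21, PSMD2 from 134 ± 11 to 580 ± 22 CPM. Genes of purine, pyrimidine, one-carbon and polyamine synthesis gave 24 higher and 4 lower of 30. CTPS1, which makes CTP, rose from 13.8 ± 1.7 to 108 ± 7.9 CPM and ODC1, the entry enzyme of polyamine synthesis, from 37.1 ± 5.8 to 148 ± 4.5 CPM. SHMT1 fell from 40.8 ± 0.77 to 16.1 ± 0.94 CPM and was at 31.3 CPM with DMSO.

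Carbon metabolism was set in the same direction. Glycolysis and hypoxia genes gave 24 higher, 3 lower and 2 not called of 29, with a median of 1.02. LDHA, lactate dehydrogenase (chromosome 11, 18394388 to 18408425, plus strand), was at 523, 552 and 489 CPM in starved cells and 2080, 2376 and 2417 CPM with palbociclib (log2 change 2.14, SE 0.07), and PGK1 rose from 200 ± 19 to 687 ± 25 CPM. Sterol and fatty acid genes gave 23 higher and 4 lower of 31. SCD, the desaturase (chromosome 10, 100347124 to 100364834, plus strand), was at 73.5, 83.1 and 78.6 CPM and then 833, 890 and 968 CPM (log2 change 3.52, SE 0.09), and IDI1 of the mevalonate path rose from 20.0 ± 3.3 to 134 ± 14 CPM, with 17.9% of its exonic bases shared. The cholesterol exporters ABCA1 and ABCG1 fell, ABCG1 from 16.8 ± 1.5 to 3.69 ± 0.9 CPM, while FASN was not called at 932 ± 23 and 903 ± 80 CPM. Respiratory genes mostly moved little, with 22 higher, 7 lower and 7 not called of 36 and a median of 0.28. Intervals lay within 1.5-fold of no change for 23 members (63.9%), against 23.9% of all genes tested. At least 2-fold changes were called upward for 4 members and downward for 1. The rises included CYCS, cytochrome c, from 57.3 ± 6.8 to 333 ± 37 CPM. The 1 fall of that size was PPARGC1A, the coactivator of fasting metabolism, which had 1172 counts against 4, a ratio of 272 (106 to 1001).

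Genes of the cytoskeleton were mostly higher, and those of attachment were split. SRF, actin and tubulin genes gave 29 higher and 2 lower of 31, with a median of 1.79. ACTB, beta-actin (chromosome 7, 5527151 to 5563784, minus strand), was at 781, 944 and 752 CPM in starved cells and 9997, 11208 and 11226 CPM with palbociclib (log2 change 3.71, SE 0.09, adjusted p = 1.4e-25). The microtubule destabiliser STMN1, itself an E2F target, was 1 of the 2 that fell, from 51.5 ± 5.7 to 29.5 ± 1.7 CPM, against 84.1 CPM with DMSO. YAP and TGF-beta targets gave 17 higher, 7 lower and 1 not called of 25, with a median of 1.64: TAGLN rose from 5.27 ± 0.76 to 165 ± 7.3 CPM, with 11.4% of its exonic bases shared, and PMEPA1 from 43.7 ± 6 to 606 ± 35 CPM, while AXL fell from 145 ± 4.1 to 51.9 ± 2.2 CPM. Basal adhesion genes gave 18 higher, 13 lower and 3 not called of 34. ITGA6, an integrin subunit of laminin receptors, rose from 479 ± 23 to 2463 ± 75 CPM. The matrix proteases MMP10 and MMP1 had 0 counts in starved cells and 388 and 149 with palbociclib, at least 139-fold and at least 53.5-fold higher against a floor of 3 counts over the group. The desmosomal cadherins DSG3 and DSC3 fell, DSG3 from 1087 ± 3.7 to 287 ± 6.5 CPM. Among the broader lineage lists, FN1, fibronectin, rose from 179 ± 4.2 to 727 ± 30 CPM and DCN fell from 52.7 ± 5.8 to 12.1 ± 0.55 CPM. The luminal list gave 5 higher, 4 lower and 1 not called of 10, beside 35.1% higher and 39.9% lower among all genes tested. KRT7 rose from 722 ± 72 to 2664 ± 94 CPM, KRT8 by 1.20 and KRT18 by 0.73, while MUC1 fell from 663 ± 24 to 178 ± 23 CPM with 11.8% of its exonic bases shared.

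Defence genes were high after starvation. The interferon and antigen presentation list gave 36 lower, 5 higher and 5 not called of 46, with a median of -1.14. TRIM22, an antiviral factor, was at 125, 117 and 107 CPM in starved cells and 11, 14.4 and 11.4 CPM with palbociclib (log2 change -3.23, SE 0.08), and HLA-E fell from 683 ± 49 to 156 ± 7.2 CPM. Without starved replicate 3 the list gave 3 higher. The complement and defence list gave 16 lower and 2 not called of 18, C3 falling from 2935 ± 261 to 1159 ± 36 CPM and C1S from 31.9 ± 2.9 to 5.55 ± 1 CPM.

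Chromatin and clock genes also separated the states. Histone genes counted in polyadenylated RNA gave 12 lower and 1 higher of 14. H1F0, the linker histone of resting cells (chromosome 22, 37805093 to 37807436, plus strand), was at 287, 301 and 285 CPM in starved cells and 29.4, 31.8 and 33.2 CPM with palbociclib (log2 change -3.21, SE 0.09, adjusted p = 1e-24). H3F3B, which encodes the replication-independent histone H3.3, rose from 245 ± 14 to 399 ± 28 CPM. Chromatin and nuclear transport genes gave 25 higher and 6 lower of 37. HMGA2, an architectural protein, rose from 18.2 ± 1 to 279 ± 5.9 CPM, KPNA2, an importin, from 30.7 ± 2.3 to 139 ± 4.4 CPM and LMNB2 from 40.0 ± 1.8 to 154 ± 6 CPM, while EZH1, the Polycomb methyltransferase typical of resting cells, fell from 78.9 ± 3.3 to 19.3 ± 1.5 CPM. In this list 18 of 37 genes were lower with palbociclib than with DMSO, against 8.79% of all genes. The clock and hormone response list gave 16 lower and 7 higher of 23: ARNTL, which encodes BMAL1, was at 14.1, 13.5 and 11.6 CPM and then 83.6, 89.5 and 86.0 CPM, whereas DBP, a clock output gene, had 932 counts and then 11, a ratio of 78.7 (43.8 to 158), with 10.1% of its exonic bases shared. The epithelial sodium channel subunit SCNN1B fell from 173 ± 3.7 to 7.87 ± 0.6 CPM, and the metallothionein MT2A rose from 196 ± 32 to 1739 ± 24 CPM.

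Levels at other times in palbociclib place the 15 h values. Differences between these times were not tested here. CDT1 was at 20.2 ± 1.7 CPM in starved cells and at means of 0.896, 1.41, 1.17 and 3.26 CPM after 9, 12, 15 and 24 h, so it was low at the first palbociclib time measured. ORC1 was at means of 0.596, 0.716, 0.999 and 3.00 CPM and MKI67 at 2.06, 1.91, 1.91 and 7.43 CPM over the same times, all below their starved means of 8.40 and 16.9 CPM. UHRF1 was already at 24.4 CPM at 9 h and at 34.9 CPM at 24 h. E2F1 was at 0.452, 0.610, 1.11 and 3.51 CPM, so its 15 h level, which overlapped the starved one, lay between lower and higher levels of the series. PDK4 stayed between 1.05 and 1.93 CPM and CCND1 between 566 and 659 CPM at these 4 times. At 24 h each group has 2 libraries.

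**Figure D5:**
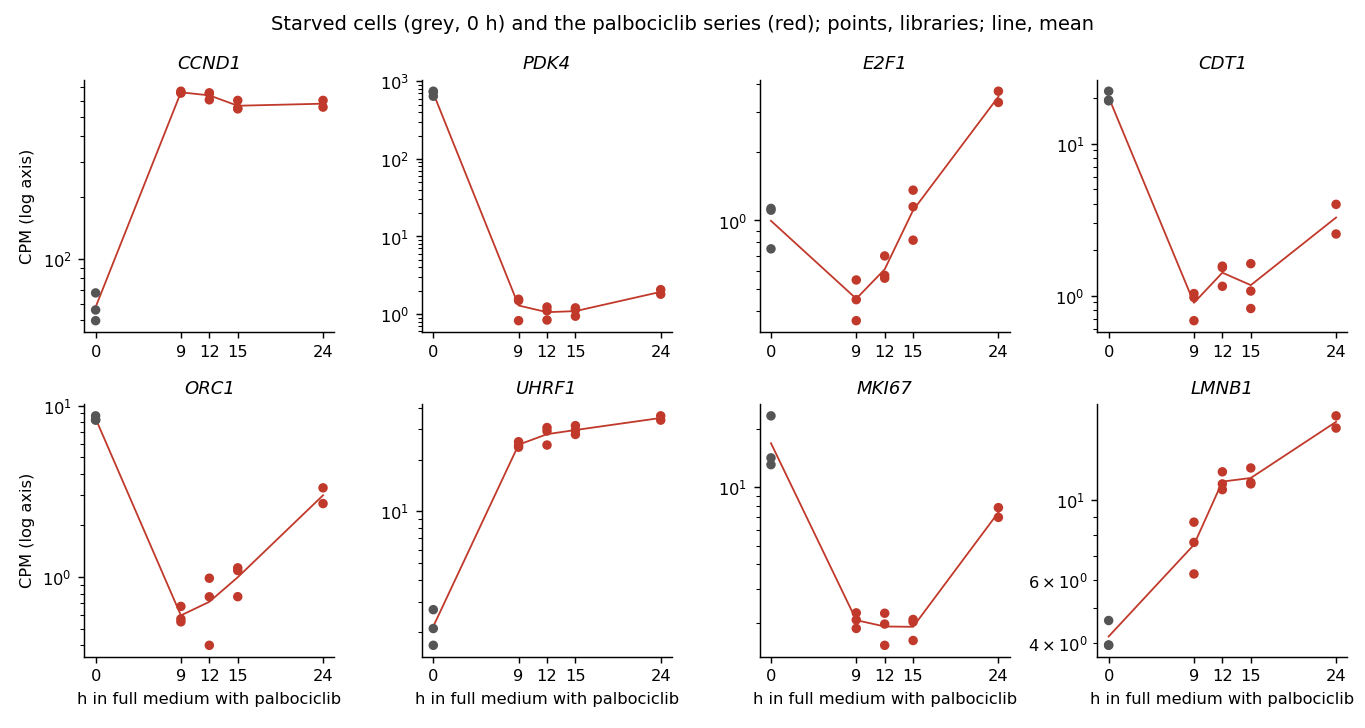
Levels (CPM, log axis with a range of its own in each panel) of 8 genes in starved cells at 0 h and after 9, 12, 15 and 24 h in full medium with palbociclib; points are libraries (3 per time, 2 at 24 h) and lines join means. CCND1, PDK4, UHRF1, CDT1, ORC1 and MKI67 are far from their starved levels at 9 h, and the 24 h points of E2F1, CDT1, ORC1, MKI67 and LMNB1 lie above the 15 h points.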

How the data were processed

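RNA of 31 MCF10A libraries was extracted and made into stranded mRNA libraries, read as 75-base single ends, per the labels' protocols. The submitters' processing notes name FastQC 0.11.3, TopHat2 2.1.1, Bowtie2 2.2.9, Subread 1.5.1 and GRCh38 patch 7. The authors counted reads per gene with featureCounts 1.5.1 on GENCODE 25 without a strand option and deposited those counts unscaled, per the file headers. All 31 libraries were fitted in R 4.3.3 with edgeR 4.0.16 (TMM scaling, filterByExpr by group, quasi-likelihood test, Benjamini-Hochberg adjustment over 15787 genes). Levels are CPM on TMM-scaled totals, and intervals are 95%. Ratios of low counts have exact counting intervals, which cover counting error only. The fit was tested on simulated data in which far fewer genes changed than were called here. That test does not cover scaling when most genes change.

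Gene lists and members were chosen with earlier results of these data known. The text names members of the 5 cell cycle and FoxO lists, the 12 largest called rises and falls at a mean log2 CPM of at least 1 without overlap of groups, lineage markers, and in other lists members with the smallest p, the largest change or the highest uncalled level. The text gives a selection of these. Alternatives were other scalings, filters, DESeq2 1.42.0, only the 6 libraries, a replicate block, a library axis covariate, an exon length trend and leaving out each library. Genes sharing over 10% of exonic bases with another gene are given with that share. Some genes of the lists are counted but not reported by name here.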

Additional observations from a re-analysis of the deposited data

How the results depend on the processing

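Counts over all genes held within 1.5 times their reported values under 79 of 80 alternatives, the exception being 145 genes called higher with palbociclib than with DMSO when no filter on low counts was used, against 340. Leaving out each library in turn gave 5376 to 5874 genes higher and 5457 to 6056 lower than in starved cells. Of 6130 values for 409 genes, 56 lost their call, 98 gained one and 0 changed sign with it, and of 1575 counts and medians of lists, 116 moved and 6 changed sign. The cause of these shifts was not tested. Same-numbered libraries of the 2 groups did not deviate together (correlations of -0.01, 0.10 and -0.40). With 3 libraries per group, this cannot settle whether the numbers pair them. On the main axis within groups, replicates 2 and 3 scored 18.7 and -18.4 in starved cells and 12.0 and -11.1 with DMSO at 15 h. With palbociclib at 15 h they scored 4.48 and 27.2. With replicate number as a block, 5612 genes were higher and 6390 lower, and 2 ribosome biogenesis genes were lower, as they were with library totals, the library axis and the exon length trend. Depth limits genes with few counts, for which counting intervals are given.

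Scaling by library totals lowered the median of all genes from -0.09 to -0.18. It gave medians of -0.01 for CDK machinery, -0.23 for Rb and E2F factors, 0.03 for G1/S, -1.13 for G2/M, -2.57 for FoxO, -0.79 for insulin, 0.90 for sterol, -0.78 for lysosome, -0.91 for p53, 1.55 for YAP, 0.60 for basal adhesion, -0.02 for luminal, 0.74 for mesenchymal, -0.43 for ATF4, -2.35 for clock, 0.49 for chromatin, -2.52 for histones, -0.21 for BCL2 and -0.29 for Notch and Wnt genes, and 0 ribosomal protein genes higher. RLE scaling gave -0.08 for Rb and E2F factors, 0.18 for G1/S, -0.65 for insulin, -0.07 for BCL2 and 1 complement gene higher. DESeq2 gave -0.08, 0.18, -0.65 and -0.08 for the same 4 medians and 2 ribosomal protein genes higher. The filter at 1 CPM gave -0.08 for Rb and E2F factors, 0.18 for G1/S, -0.65 for insulin, -0.76 for p53, 1.70 for YAP and 0.00 for NRF2, with 2 ribosomal protein genes and 1 complement gene higher. The exon length trend gave -0.58 for insulin, -0.69 for p53, -0.19 for BCL2 and 1 complement gene higher. The 6 libraries alone gave 0.23 for G1/S, 0.64 for basal adhesion, -0.77 for squamous, -0.04 for NRF2 and -0.17 for BCL2.

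With 1 library left out, medians ran from 0.06 to 0.20 for CDK machinery, -0.18 to 0.01 for Rb and E2F factors, 0.11 to 0.25 for G1/S, -1.10 to -0.98 for G2/M, -2.49 to -2.35 for FoxO, -0.71 to -0.61 for insulin, 1.96 to 2.1 for ERK, 0.98 to 1.14 for sterol, 0.24 to 0.39 for respiratory, -0.68 to -0.54 for lysosome, -0.80 to -0.66 for p53, -1.18 to -0.87 for interferon and -0.18 to 0.10 for NF-kappaB genes. They ran from 1.62 to 1.78 for YAP, 0.67 to 0.82 for basal adhesion, -0.59 to -0.31 for squamous, 0.00 to 0.19 for luminal, 0.79 to 0.95 for mesenchymal, -4.08 to -3.35 for blood, -0.37 to -0.18 for ATF4, -0.21 to 0.07 for NRF2, -2.32 to -2.07 for clock, 0.61 to 0.69 for chromatin, -2.55 to -2.21 for histones, -0.17 to 0.05 for BCL2 and -0.27 to -0.10 for Notch and Wnt genes. The positive ends for Rb and E2F factors, NF-kappaB, NRF2 and BCL2 came without palbociclib replicate 1. Counts ran from 1 to 2 for ribosome biogenesis genes lower, 0 to 3 for ribosomal protein genes higher, 3 to 6 for interferon genes higher and 0 to 1 for complement genes higher.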

Other observations

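Cytokine and NF-kappaB genes gave 12 higher, 11 lower and 1 not called of 24 and a median of -0.09 (0.10 without palbociclib replicate 1). Among all genes tested, 35.1% were higher and 39.9% lower. CSF3, which encodes the granulocyte growth factor G-CSF, was at 0.589, 1.10 and 0.597 CPM in starved cells and 106, 106 and 103 CPM with palbociclib. CXCL8, which encodes interleukin 8, rose from 1.53 ± 0.25 to 33.1 ± 1.7 CPM, and IL33 had 0 counts against 61, at least 21.9-fold higher with palbociclib against a floor of 3 counts over the group. Feedback genes of NF-kappaB were lower: BIRC3 fell from 486 ± 15 to 38.5 ± 2.7 CPM and NFKBIA from 275 ± 25 to 74.0 ± 7.4 CPM. In the BCL2 family, 6 of 13 were lower, 4 higher and 3 not called, with a median of -0.12 (0.05 without palbociclib replicate 1). Beside the shares of all genes, these counts do not set the family apart. BCL2L11, which encodes the death-promoting protein BIM, fell from 89.6 ± 2.8 to 8.30 ± 1 CPM and was at 13.7 ± 0.98 CPM with DMSO (palbociclib against DMSO, log2 change -0.71, edgeR adjusted p = 6.3e-06). HRK, another promoter of cell death, fell from 36.6 ± 0.71 to 3.61 ± 0.21 CPM. The survival gene BCL2 rose from 1.01 ± 0.16 to 3.00 ± 0.19 CPM, below its 6.76 ± 0.93 CPM with DMSO, and the effector BAK1 rose from 22.2 ± 1.9 to 73.5 ± 5.5 CPM.

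Notch and Wnt genes gave 11 lower, 8 higher and 7 not called of 26. All genes tested gave 35.1% higher and 39.9% lower. The counts of this list and of the stress lists below therefore do not set them apart. The receptor NOTCH1 fell from 754 ± 71 to 107 ± 14 CPM while its ligand JAG1 rose from 73.5 ± 1.6 to 187 ± 4.3 CPM. DKK1, a Wnt inhibitor, fell from 565 ± 97 to 139 ± 9.2 CPM, WNT7A rose from 1.24 ± 0.14 to 11.8 ± 0.95 CPM, and AXIN2, a Wnt target, had 79 counts against 1, a ratio of 73.4 (12.8 to 2935), with 25.2% of its exonic bases shared. The stress lists held genes of both directions as well. The ATF4 and unfolded protein list gave 13 lower, 9 higher and 6 not called of 28: ATF4 fell from 599 ± 39 to 181 ± 4.7 CPM and NUPR1 from 139 ± 7.9 to 11.7 ± 0.84 CPM, whereas the chaperone HSPA5 rose from 420 ± 55 to 1372 ± 143 CPM. The NRF2 and pentose phosphate list gave 9 lower, 8 higher and 3 not called of 20, with a median of -0.21 (0.07 without palbociclib replicate 1). TKT, transketolase, fell from 1132 ± 64 to 400 ± 16 CPM and NQO1, a quinone reductase, rose from 52.5 ± 5.8 to 130 ± 6.2 CPM, with 17.7% of its exonic bases shared.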
